A study of Saccharomyces cerevisiae with 13 samples.

Results

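The 40 genes described here encode the subunits of yeast RNA polymerases I and III, the factors that start transcription by either enzyme, and the polymerase III repressor Maf1. They were chosen by annotation to these complexes, with earlier results of these data known, and all 40 were found among the 5449 genes measured, each on 1 probe set. The genes comprise 7 subunits found only in polymerase I, 9 found only in polymerase III and 2 shared by both. A further 5 are shared by all of polymerases I, II and III. The rest are 8 polymerase I initiation factors, 2 of the TFIIIB proteins (BRF1 and BDP1), the 6 TFIIIC subunits and MAF1. RET1, the second largest polymerase III subunit, was not among the chosen genes and appears once below for comparison.

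Expression was measured on 13 arrays of the haploid laboratory strain BY4741. Cells were grown at 30 °C in YPGE, a medium whose carbon sources, glycerol and ethanol, can be used only by respiration, until the cultures were saturated. They then received either TFM at 0.05 mM or isopropanol at 2%, which served as the untreated control, for 1, 2 or 4 h, and further samples stood for time zero. The study's design places the latter before treatment, although their own labels name isopropanol as the agent, and they were taken as untreated here. TFM is 3-trifluoromethyl-4-nitrophenol, a lampricide known as an uncoupler of mitochondrial respiration. Each of the 7 groups had 2 arrays except isopropanol at 2 h, which had 1. How much isopropanol the TFM cultures received is not stated, so an effect of TFM and one of a difference in solvent cannot be told apart. The RNA samples of a group are called independent, with no word on separate cultures, so p-values measure only how far such samples spread, which may be technical.

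RNA polymerase I makes a single transcript, the precursor of the large ribosomal RNAs. It is brought to the rDNA promoter by Rrn3 and the core factor, helped by the upstream activating factor. RNA polymerase III makes transfer RNAs, 5S ribosomal RNA and other small RNAs. TFIIIC binds elements inside these genes and places TFIIIB upstream of the start, and TFIIIB recruits the enzyme. Both enzymes are known to be regulated by nutrients and stress in yeast, polymerase III through Maf1, whose activity is set mainly by phosphorylation.

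Values are log2 RMA values as deposited, and a difference of 1 is a 2-fold difference in hybridisation signal. Because all arrays were brought to a common distribution, differences are relative to the rest of the array, and fewer cells carrying a transcript and less of it per cell cannot be told apart. Differences are TFM minus isopropanol at the same time with their standard error (SE), and a gene was called higher or lower when limma's two-sided p, adjusted by the Benjamini-Hochberg method over all 5449 genes, was under 0.05. The strain's markers were as its genotype states for LEU2, URA3 and MET17 (also named MET15), which read 4.76 to 6.15 on the 13 arrays, near the unspiked control probe sets (highest per array 5.65 to 6.27), and for LYS2 at 12.0 to 12.6. HIS3, also disrupted in BY4741, read 11.3 to 11.6, and the strain's allele is known to leave part of the gene. The a-specific genes STE2, STE6, BAR1, MFA1, MFA2 and ASG7 read 8.30 to 14.2, while of the alpha-specific genes STE3, MF(ALPHA)1 and MF(ALPHA)2 read 5.44 to 9.34 and SAG1, against the strain's mating type, 11.5 to 12.6. Replicates correlated across genes at r of 0.992 to 0.998. The mean 3' minus 5' signal of 7 control transcripts, which reflects RNA integrity and labelling, was 1.63 and 1.40 on the TFM arrays at 4 h, against 1.15 and 1.13 in isopropanol at 4 h and 1.13 to 1.42 on all 7 arrays without TFM. All 40 genes read above the unspiked controls on every array, from 7.24 to 12.85.

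At 4 h of TFM 29 of the 40 genes (72.5%) differed from isopropanol, 11 higher and 18 lower, against 64.9% of all genes called at that time (30.9% higher and 34% lower). The share is near that of the array as a whole, and the median difference over the 40 genes was -0.16 against -0.01 over all genes. Genes for 4 polymerase I subunits fell, the 2 largest included, and those for Rrn3 and all 3 core factor subunits rose. The TFIIIB and TFIIIC genes of the set that were called all fell. Polymerase III subunit genes went both ways. Of the 40 genes 4 were called at least 2-fold higher (RPC82, RPC37, RRN3 and RRN7), where 4.81% of all genes were, and 3 at least 2-fold lower (RPA135, RPA43 and RPA49), where 6.26% were.

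**Figure D1:**
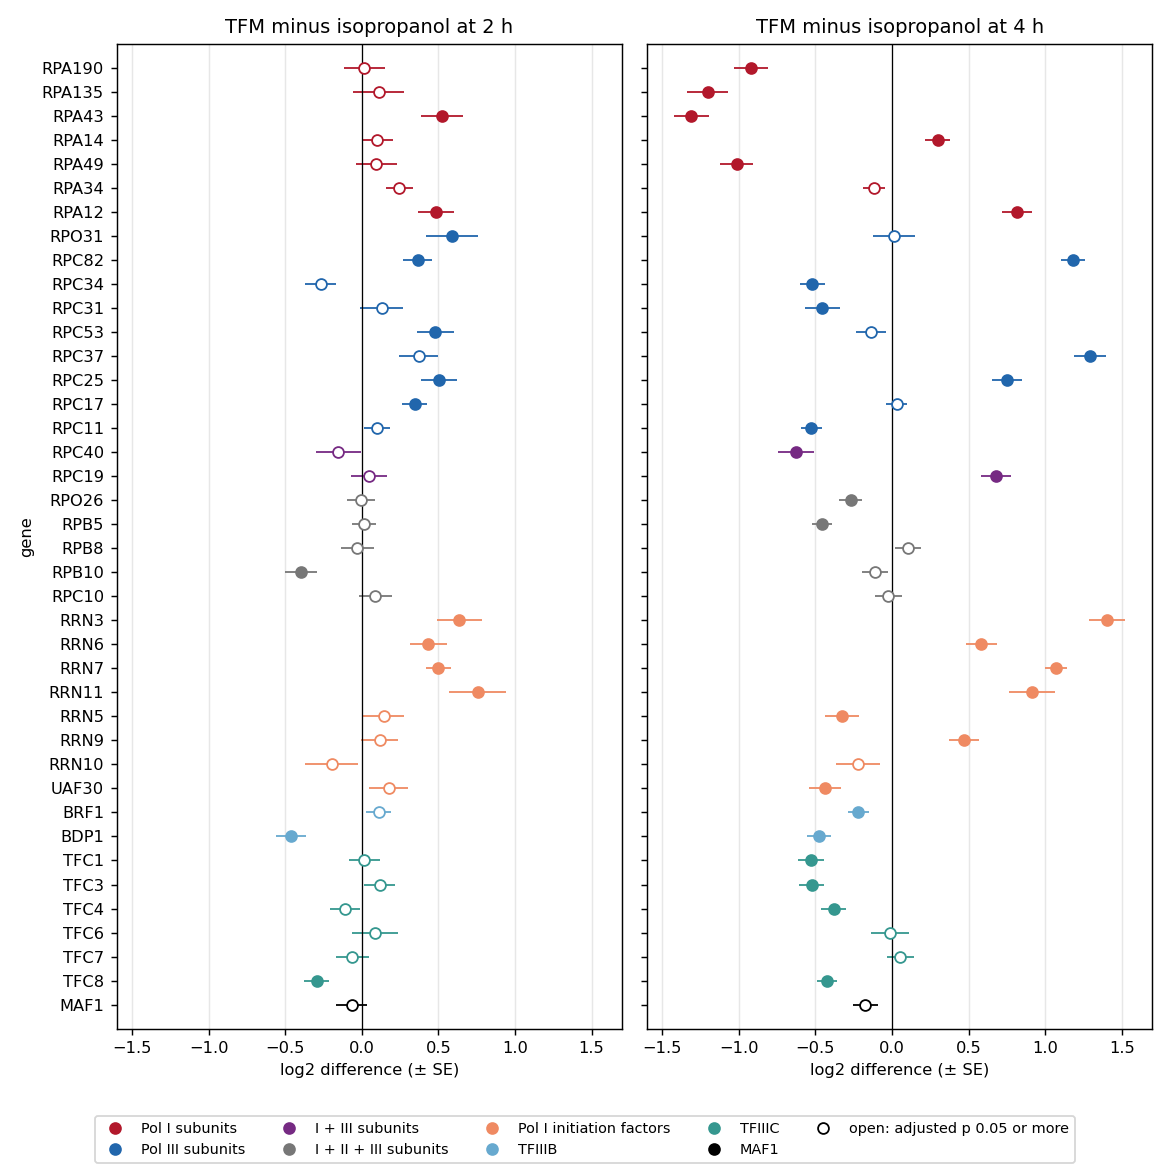
Differences between TFM and isopropanol at 2 h (left) and 4 h (right) for each of the 40 genes. The horizontal axis is the log2 difference, bars are its standard error, colours give the role, and filled points passed an adjusted p of 0.05. At 4 h RPA190, RPA135, RPA43 and RPA49 lie between -1.31 and -0.92, and RRN3, RRN7, RPC82 and RPC37 between 1.07 and 1.40.

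Of the 7 subunit genes specific to polymerase I, 4 fell at 4 h, 2 rose and 1 was not called, and their median difference was -0.92. Among all genes 34% fell and 30.9% rose at 4 h. RPA190 encodes the largest subunit, which carries the catalytic centre. It measured 12.58 and 12.58 at time zero, 12.53 and 12.42 after 1 h, 12.47 after 2 h and 12.59 and 12.73 after 4 h of isopropanol, and 12.21 and 12.50 after 1 h, 12.56 and 12.42 after 2 h and 11.65 and 11.83 after 4 h of TFM. The 4 h TFM arrays were the lowest of the 13 and every other array read 12.21 or more, and the difference at 4 h was -0.92 ± 0.11 (SE, adjusted p = 6.27e-05). RPA135, the second largest subunit, measured 12.65 and 12.67 at time zero, 12.60 and 12.45, 12.41, and 12.56 and 12.85 in isopropanol at 1, 2 and 4 h, and 12.34 and 12.71, 12.63 and 12.42, and 11.47 and 11.54 in TFM at the same times. Its TFM arrays at 4 h again lay below all others, by a difference of -1.21 ± 0.14 (SE, adjusted p = 4.32e-05) from isopropanol, a 2.31-fold fall.

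RPA43 encodes the larger stalk subunit, the surface that contacts Rrn3. It measured 9.90 and 9.89 at time zero, 9.64 and 9.83 after 1 h, 9.50 after 2 h and 10.00 and 10.24 after 4 h of isopropanol, and 9.96 and 10.08 after 1 h, 10.15 and 9.91 after 2 h and 8.88 and 8.74 after 4 h of TFM. It had the largest fall of the 40 genes at 4 h, -1.31 ± 0.11 (SE, adjusted p = 7.94e-06), or 2.48-fold, with no overlap between the groups. RPA49 and RPA34 form a dimer that resembles parts of polymerase II's TFIIF and TFIIE. RPA49 measured 9.97 and 9.88 at time zero, 9.84 and 9.79, 9.66, and 9.85 and 10.16 in isopropanol at 1, 2 and 4 h, and 9.70 and 9.85, 9.85 and 9.66, and 9.01 and 8.98 in TFM at the same times, a fall at 4 h of -1.02 ± 0.11 (SE, adjusted p = 3.15e-05) with its TFM arrays lowest of all. Its partner RPA34 ranged from 10.44 to 10.78 on all arrays, and its difference at 4 h, -0.12 (adjusted p = 0.17), was not called.

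The 2 polymerase I genes that rose encode small subunits. RPA12, the zinc ribbon subunit needed for RNA cleavage and termination, measured 9.36 and 9.45 at time zero, 9.47 and 9.25 after 1 h, 9.39 after 2 h and 9.35 and 9.54 after 4 h of isopropanol, and 9.47 and 9.62 after 1 h, 9.90 and 9.85 after 2 h and 10.30 and 10.22 after 4 h of TFM. The TFM arrays at 2 h and 4 h lay above all 7 arrays without TFM, and the 4 h difference was 0.82 ± 0.098 (SE, adjusted p = 6.02e-05), 1.76-fold. RPA14, the smaller stalk subunit and partner of RPA43, measured 11.49 and 11.59 at time zero, 11.42 and 11.28, 11.60, and 11.62 and 11.58 in isopropanol at 1, 2 and 4 h, and 11.49 and 11.59, 11.79 and 11.61, and 11.92 and 11.87 in TFM at the same times. Its rise at 4 h was 0.30 ± 0.084 (SE, adjusted p = 0.0113), and the call was lost without isopropanol replicate 2 (adjusted p = 0.0534) or TFM replicate 1 (adjusted p = 0.0538) of that time. RPA43 and RPA190 are neighbours on chromosome XV, at YOR340C and YOR341W, and are transcribed away from each other.

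**Figure D2:**
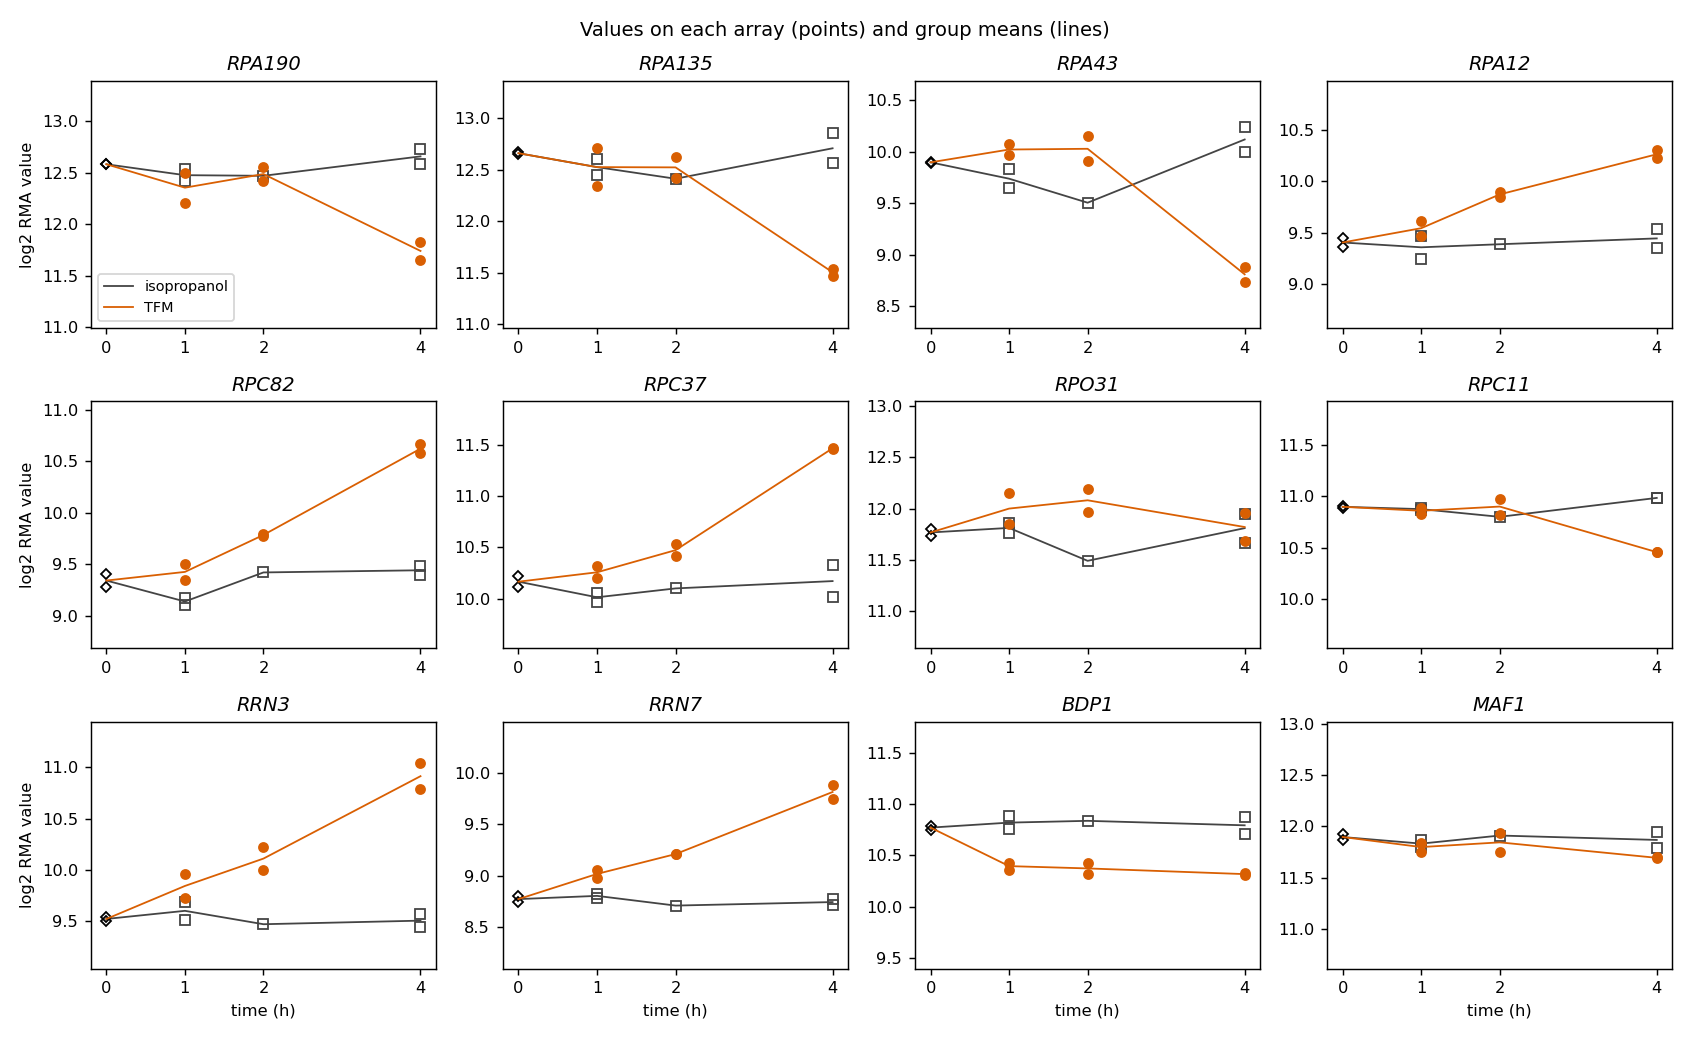
Values of 12 genes on every array against time. The vertical axis is the log2 RMA value with the same span in every panel, points are arrays (diamonds time zero, squares isopropanol, circles TFM) and lines join group means from the shared time zero. RPA190 and RPA135 separate from isopropanol at 4 h, RRN3 and RRN7 climb through the TFM course, and BDP1 is lower on all 6 TFM arrays.

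Of the 9 subunit genes specific to polymerase III, 3 rose at 4 h, 3 fell and 3 were not called, and their median difference was 0.01. The shares over all genes were 30.9% higher and 34% lower. The largest subunit gene RPO31, the counterpart of RPA190, measured 11.73 and 11.81 at time zero, 11.86 and 11.76 after 1 h, 11.49 after 2 h and 11.67 and 11.95 after 4 h of isopropanol, and 11.85 and 12.15 after 1 h, 11.97 and 12.19 after 2 h and 11.95 and 11.69 after 4 h of TFM. The isopropanol and TFM arrays at 4 h overlapped and the difference was 0.01 ± 0.14 (SE, adjusted p = 0.95). Its sign depended on the processing, as the value was -0.35 with the 3' minus 5' signal as a covariate.

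Both genes of the set with rises above 2-fold outside the initiation factors were polymerase III subunits. RPC37, which with RPC53 forms the dimer for termination and reinitiation, measured 10.12 and 10.22 at time zero, 10.06 and 9.97 after 1 h, 10.10 after 2 h and 10.02 and 10.33 after 4 h of isopropanol, and 10.32 and 10.20 after 1 h, 10.53 and 10.41 after 2 h and 11.47 and 11.46 after 4 h of TFM. Its TFM arrays at 4 h stood apart from the other 11 arrays, by 1.29 ± 0.10 (SE, adjusted p = 5.47e-06) from isopropanol, 2.45-fold. Its partner RPC53 measured 9.25 and 9.004 at time zero, 9.30 and 9.18, 9.12, and 9.43 and 9.32 in isopropanol at 1, 2 and 4 h, and 9.41 and 9.47, 9.65 and 9.56, and 9.32 and 9.15 in TFM at the same times. RPC53 was called higher at 2 h, 0.48 ± 0.12 (SE, adjusted p = 0.0304), but not at 4 h, -0.14 (adjusted p = 0.233).

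RPC82, RPC34 and RPC31 form the subcomplex of polymerase III that opens the promoter and contacts TFIIIB. Within this trimer the genes went opposite ways. RPC82 measured 9.28 and 9.40 at time zero, 9.18 and 9.10 after 1 h, 9.42 after 2 h and 9.40 and 9.48 after 4 h of isopropanol, and 9.35 and 9.50 after 1 h, 9.78 and 9.79 after 2 h and 10.58 and 10.66 after 4 h of TFM, and its rise of 1.18 ± 0.078 (SE, adjusted p = 2.1e-06) at 4 h, 2.27-fold, left no overlap with any other array. RPC34 measured 9.95 and 9.93 at time zero, 9.78 and 9.95, 9.91, and 10.10 and 10.06 in isopropanol at 1, 2 and 4 h, and 9.75 and 9.71, 9.74 and 9.55, and 9.57 and 9.54 in TFM at the same times. All 6 of its TFM arrays lay below all 7 without TFM, and the fall at 4 h was -0.52 ± 0.082 (SE, adjusted p = 0.000343). RPC31 ranged from 9.75 to 10.35 and fell by 0.45 at 4 h (adjusted p = 0.00602), with both TFM arrays of that time lowest. The RPC31 call was lost with the 3' minus 5' signal as a covariate (-0.23, adjusted p = 0.305).

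The stalk of polymerase III is made by RPC25 and RPC17. RPC25 measured 10.15 and 10.03 at time zero, 10.08 and 9.99 after 1 h, 9.95 after 2 h and 10.03 and 10.15 after 4 h of isopropanol, and 10.35 and 10.08 after 1 h, 10.44 and 10.46 after 2 h and 10.90 and 10.79 after 4 h of TFM, with its 4 h TFM arrays highest of all and a difference of 0.75 ± 0.097 (SE, adjusted p = 9.57e-05). RPC17 measured 7.47 and 7.46 at time zero, 7.44 and 7.51, 7.42, and 7.54 and 7.43 in isopropanol at 1, 2 and 4 h, and 7.49 and 7.48, 7.77 and 7.76, and 7.56 and 7.46 in TFM at the same times. It was higher at 2 h alone of the 3 times, 0.35 ± 0.082 (SE, adjusted p = 0.0254), and its 4 h groups overlapped (0.03, adjusted p = 0.712). The RPC17 call at 2 h was lost under 8 of 22 other settings, among them quantile normalization (0.17, adjusted p = 0.332) and leaving out either time zero array (adjusted p = 0.0519) or TFM replicate 2 of 2 h (adjusted p = 0.0682). RPC11, the subunit for RNA cleavage and termination, measured 10.91 and 10.89 at time zero, 10.87 and 10.88 after 1 h, 10.80 after 2 h and 10.98 and 10.99 after 4 h of isopropanol, and 10.89 and 10.83 after 1 h, 10.82 and 10.98 after 2 h and 10.46 and 10.46 after 4 h of TFM. Its 4 h TFM arrays were the lowest of the 13, with a fall of -0.53 ± 0.067 (SE, adjusted p = 9.29e-05).

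RPC40 and RPC19 form the heterodimer on which both enzymes are assembled, and their genes moved in opposite directions. RPC40 measured 12.09 and 12.05 at time zero, 11.82 and 11.93 after 1 h, 12.004 after 2 h and 12.20 and 12.14 after 4 h of isopropanol, and 11.73 and 11.91 after 1 h, 11.999 and 11.70 after 2 h and 11.41 and 11.68 after 4 h of TFM, lowest on the TFM arrays at 4 h, with a fall of -0.63 ± 0.12 (SE, adjusted p = 0.00105). This fall was -0.28 (adjusted p = 0.126) with the 3' minus 5' signal as a covariate. RPC19 measured 9.71 and 9.53 at time zero, 9.71 and 9.61, 9.83, and 9.72 and 9.91 in isopropanol at 1, 2 and 4 h, and 9.68 and 9.81, 9.92 and 9.83, and 10.43 and 10.56 in TFM at the same times, highest on those arrays, with a rise of 0.68 ± 0.096 (SE, adjusted p = 0.000185).

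Of the 5 subunits that polymerases I, II and III have in common, 2 fell and 0 rose at 4 h, with a median of -0.11. Over all genes 34% fell and 30.9% rose. RPB5 measured 11.86 and 11.82 at time zero, 11.82 and 11.79 after 1 h, 11.84 after 2 h and 11.89 and 11.98 after 4 h of isopropanol, and 11.80 and 11.75 after 1 h, 11.89 and 11.82 after 2 h and 11.50 and 11.45 after 4 h of TFM, and fell by 0.46 ± 0.064 (SE, adjusted p = 0.000172) at 4 h without overlap. RPO26 measured 11.92 and 11.85 at time zero, 12.02 and 11.89, 11.90, and 12.003 and 11.93 in isopropanol at 1, 2 and 4 h, and 11.85 and 11.74, 11.85 and 11.93, and 11.66 and 11.73 in TFM at the same times, a difference of -0.27 ± 0.075 (SE, adjusted p = 0.01). The RPO26 call was lost without isopropanol replicate 1 (adjusted p = 0.0584) or TFM replicate 1 (adjusted p = 0.0521) of 4 h. RPB10 measured 11.35 and 11.20 at time zero, 11.26 and 11.21 after 1 h, 11.42 after 2 h and 11.30 and 11.30 after 4 h of isopropanol, and 11.10 and 10.999 after 1 h, 11.001 and 11.03 after 2 h and 11.08 and 11.29 after 4 h of TFM. It was lower at 2 h (-0.40 ± 0.10, SE, adjusted p = 0.0342) and not called at 4 h (-0.11, adjusted p = 0.262). RPB8 (12.59 to 12.84) and RPC10 (10.34 to 10.63) were called at no time.

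**Figure D3:**
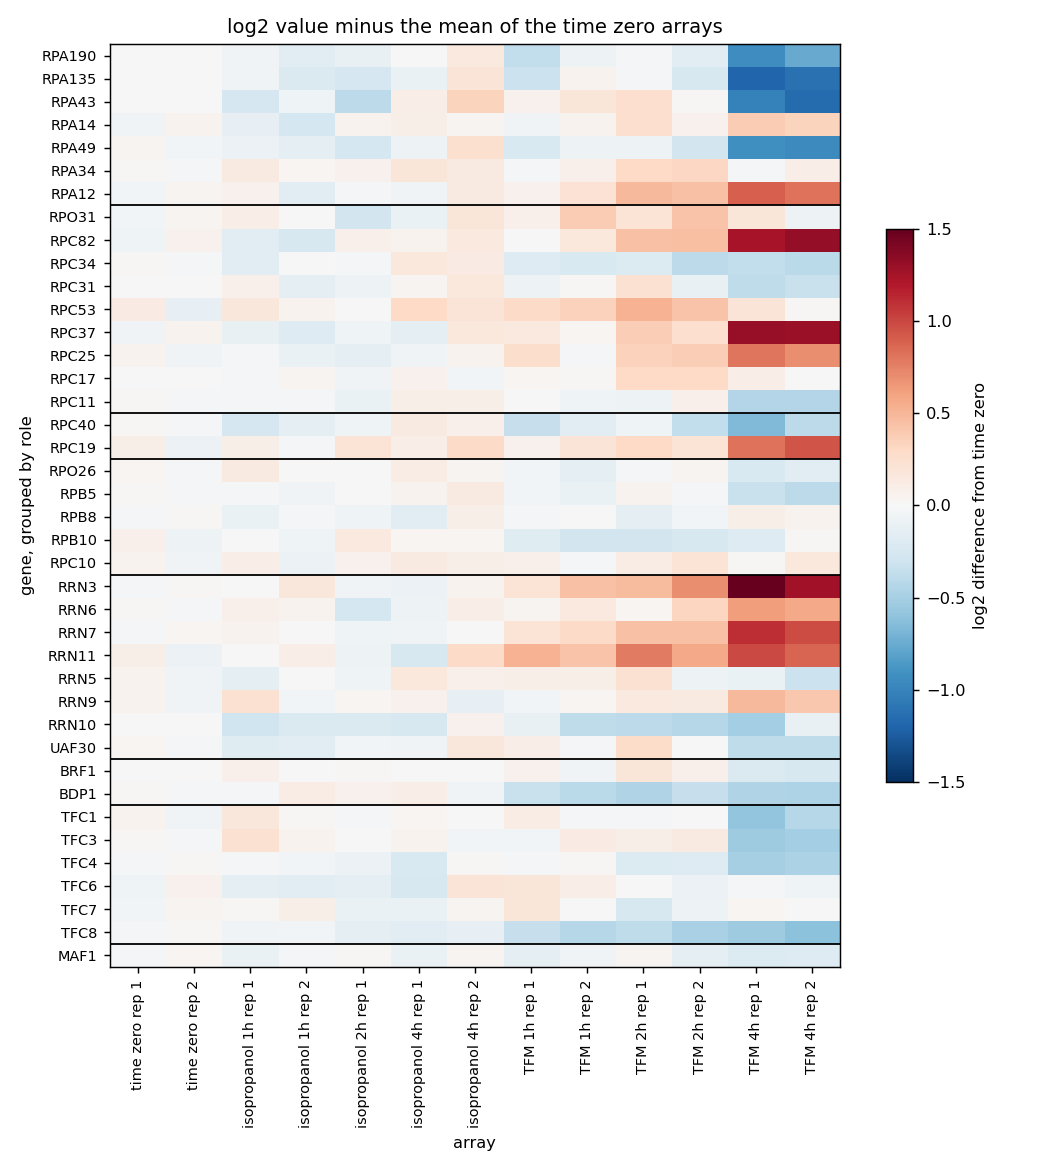
All 40 genes (rows, grouped by role) on all 13 arrays (columns), coloured by the log2 value minus the mean of the time zero arrays. The TFM arrays at 4 h, at the right, hold the darkest cells, blue for RPA190, RPA135, RPA43 and RPA49 and red for RPC82, RPC37, RRN3 and RRN7, while the 5 isopropanol arrays stay pale.

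Among the 8 polymerase I initiation genes 5 rose at 4 h, 2 fell and 1 was not called, with a median of 0.53. Of all genes 30.9% rose and 34% fell at 4 h. RRN3, whose product binds the polymerase and makes it competent to start, measured 9.50 and 9.55 at time zero, 9.52 and 9.69 after 1 h, 9.47 after 2 h and 9.44 and 9.57 after 4 h of isopropanol, and 9.73 and 9.96 after 1 h, 10.00 and 10.22 after 2 h and 11.04 and 10.79 after 4 h of TFM. All 6 TFM arrays lay above all 7 without TFM. Its rise of 1.40 ± 0.12 (SE, adjusted p = 7.43e-06) at 4 h, 2.65-fold, was the largest of the 40 genes, and it was already called at 2 h (0.64 ± 0.15, SE, adjusted p = 0.021).

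The core factor, which binds the promoter next to the start, is made of Rrn6, Rrn7 and Rrn11. All 3 genes rose at 2 h and at 4 h, where 8.3% and 30.9% of all genes did. RRN7, which encodes the TFIIB-like subunit, measured 8.75 and 8.80 at time zero, 8.83 and 8.78 after 1 h, 8.71 after 2 h and 8.72 and 8.77 after 4 h of isopropanol, and 8.98 and 9.06 after 1 h, 9.21 and 9.21 after 2 h and 9.88 and 9.75 after 4 h of TFM. Its values on the 6 TFM arrays were all above those without TFM, with differences of 0.50 ± 0.085 (SE, adjusted p = 0.00688) at 2 h and 1.07 ± 0.069 (SE, adjusted p = 1.92e-06) at 4 h. RRN11 measured 7.56 and 7.40 at time zero, 7.49 and 7.58, 7.40, and 7.24 and 7.76 in isopropanol at 1, 2 and 4 h, and 8.001 and 7.91, 8.27 and 8.05, and 8.47 and 8.36 in TFM at the same times, also without overlap between the arrays with and without TFM, with differences of 0.76 ± 0.19 (SE, adjusted p = 0.0289) and 0.91 ± 0.15 (SE, adjusted p = 0.000509) at these times. RRN6 measured 10.43 and 10.38 at time zero, 10.49 and 10.46 after 1 h, 10.15 after 2 h and 10.33 and 10.51 after 4 h of isopropanol, and 10.45 and 10.55 after 1 h, 10.44 and 10.73 after 2 h and 11.03 and 10.97 after 4 h of TFM. It rose by 0.58 ± 0.10 (SE, adjusted p = 0.000594) at 4 h, and the call was lost with the 3' minus 5' signal as a covariate (0.33, adjusted p = 0.0686).

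The upstream activating factor, which holds Rrn5, Rrn9, Rrn10 and Uaf30 together with histones, did not move as a block. UAF30 measured 8.96 and 8.90 at time zero, 8.75 and 8.76 after 1 h, 8.88 after 2 h and 8.87 and 9.09 after 4 h of isopropanol, and 9.03 and 8.91 after 1 h, 9.20 and 8.92 after 2 h and 8.54 and 8.54 after 4 h of TFM. It fell at 4 h with its TFM arrays lowest (-0.44 ± 0.10, SE, adjusted p = 0.00417), a call lost with the covariate (-0.20, adjusted p = 0.290). RRN5 measured 9.68 and 9.58 at time zero, 9.48 and 9.62, 9.56, and 9.79 and 9.71 in isopropanol at 1, 2 and 4 h, and 9.71 and 9.72, 9.85 and 9.56, and 9.53 and 9.31 in TFM at the same times. Its 4 h difference was -0.33 ± 0.11 (SE, adjusted p = 0.0256), and it missed the threshold against time zero (-0.21, adjusted p = 0.127) and without isopropanol replicate 1 (adjusted p = 0.111) or TFM replicate 2 (-0.21, adjusted p = 0.168) of that time. RRN9 ranged from 10.12 to 10.72 and rose at 4 h (0.47 ± 0.098, SE, adjusted p = 0.00211), with the covariate 0.36 (adjusted p = 0.0960). RRN10, from 9.28 to 9.85, was not called (-0.22, adjusted p = 0.192).

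On the polymerase III side BRF1 and BDP1 of TFIIIB and 4 of the 6 TFIIIC genes fell at 4 h, and none of these 8 rose. Of all genes 34% fell and 30.9% rose at that time. TFIIIB also holds the TATA-binding protein, whose gene SPT15, outside the set, rose at 4 h (0.68 ± 0.066, SE, adjusted p = 1.7e-05). BDP1, a TFIIIB protein that stabilises the factor on DNA, measured 10.79 and 10.75 at time zero, 10.75 and 10.88 after 1 h, 10.84 after 2 h and 10.87 and 10.71 after 4 h of isopropanol, and 10.43 and 10.36 after 1 h, 10.32 and 10.42 after 2 h and 10.32 and 10.31 after 4 h of TFM. All 6 TFM arrays, 10.31 to 10.43, lay below the 7 arrays without TFM, 10.71 to 10.88. The fall was of like size at each time, -0.42 ± 0.078 (SE, adjusted p = 0.0455) at 1 h, -0.46 ± 0.096 (SE, adjusted p = 0.0147) at 2 h and -0.47 ± 0.078 (SE, adjusted p = 0.000475) at 4 h. BRF1, the TFIIB-like TFIIIB protein, measured 11.84 and 11.86 at time zero, 11.93 and 11.84, 11.87, and 11.85 and 11.84 in isopropanol at 1, 2 and 4 h, and 11.92 and 11.80, 12.03 and 11.93, and 11.64 and 11.61 in TFM at the same times. It fell at 4 h by 0.22 ± 0.068 (SE, adjusted p = 0.0165) with both TFM arrays lowest. That BRF1 call was lost without either isopropanol array or TFM replicate 2 of 4 h (adjusted p = 0.0528 to 0.0580).

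TFIIIC has a module that binds the A box (Tfc1, Tfc4 and Tfc7) and one that binds the B box (Tfc3, Tfc6 and Tfc8). In each module 2 genes fell at 4 h and 1 was not called, where 34% of all genes fell, and the median over the 6 was -0.40. TFC8 measured 11.06 and 11.09 at time zero, 11.03 and 11.04 after 1 h, 10.94 after 2 h and 10.90 and 10.95 after 4 h of isopropanol, and 10.73 and 10.65 after 1 h, 10.70 and 10.59 after 2 h and 10.54 and 10.46 after 4 h of TFM. As with BDP1, all 6 TFM arrays were below all 7 others, and the differences were -0.34 ± 0.067 (SE, adjusted p = 0.0481) at 1 h, -0.29 ± 0.082 (SE, adjusted p = 0.0427) at 2 h and -0.43 ± 0.067 (SE, adjusted p = 0.000336) at 4 h. TFC3, which encodes the subunit that contacts the B box, measured 12.21 and 12.17 at time zero, 12.42 and 12.24, 12.18, and 12.24 and 12.14 in isopropanol at 1, 2 and 4 h, and 12.15 and 12.31, 12.28 and 12.32, and 11.66 and 11.68 in TFM at the same times. Its 4 h TFM arrays were the lowest of the 13, and the difference was -0.52 ± 0.082 (SE, adjusted p = 0.000333). TFC1 (10.23 to 10.98) and TFC4 (10.56 to 11.09) had differences of -0.53 (adjusted p = 0.000394) and -0.38 (adjusted p = 0.00227) at 4 h, with their TFM arrays of that time lowest. TFC6 (10.56 to 11.01) and TFC7 (10.62 to 11.04) overlapped between groups, at -0.01 (adjusted p = 0.923) and 0.05 (adjusted p = 0.623), and both changed sign with the covariate, to 0.05 and -0.04.

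MAF1 measured 11.87 and 11.93 at time zero, 11.80 and 11.87 after 1 h, 11.91 after 2 h and 11.79 and 11.94 after 4 h of isopropanol, and 11.76 and 11.84 after 1 h, 11.94 and 11.76 after 2 h and 11.69 and 11.70 after 4 h of TFM. Its TFM arrays at 4 h were the lowest of the 13, but the difference did not pass the threshold (-0.17 ± 0.082, SE, adjusted p = 0.088). It was called, at -0.17, when all 5 isopropanol arrays served as the control, and at -0.25 without isopropanol replicate 1 of 4 h. An mRNA level does not report the phosphorylation through which Maf1 is controlled.

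Fewer of the genes were called at 1 h and 2 h than at 4 h. At 1 h 2 of the 40 genes (5.0%), BDP1 and TFC8, were called, both lower, where 1.23% of all genes were called (0.807% higher and 0.422% lower). Both calls were lost when any 1 of the time zero, isopropanol 1 h, TFM 1 h or TFM 4 h arrays was left out, with adjusted p up to 0.278. RRN11, RRN7 and RRN3, whose 1 h TFM arrays lay above all arrays without TFM, had differences of 0.42 (adjusted p = 0.202), 0.21 (adjusted p = 0.155) and 0.24 (adjusted p = 0.318) and were not called. RPC34, RPB10 and RPO26, whose 1 h TFM arrays lay below all arrays without TFM, were not called either. Their differences were -0.14 (adjusted p = 0.409), -0.19 (adjusted p = 0.286) and -0.16 (adjusted p = 0.291).

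At 2 h 14 genes (35%) were called, 11 higher and 3 lower, where 14.1% of all genes were (8.3% higher and 5.84% lower). The higher genes were 5 polymerase III subunits (RPO31, RPC82, RPC53, RPC25 and RPC17), RPA43, RPA12, RRN3 and the 3 core factor genes, and the lower ones BDP1, TFC8 and RPB10. The 9 polymerase III subunits had a median of 0.36, the 7 of polymerase I 0.11 and all genes 0.01. The control at 2 h is a single array, and on it RPA43 (9.50), RPO31 (11.49) and RRN6 (10.15) had their lowest values of the arrays without TFM. So did RPC25 (9.95), RPC17 (7.42) and RRN7 (8.71), while RPB10 (11.42), called lower, had its highest value on that array. Against time zero the 2 h differences were 0.13 (adjusted p = 0.424) for RPA43, 0.31 (adjusted p = 0.131) for RPO31 and 0.17 (adjusted p = 0.230) for RRN6. With time zero as the control 12 of the 40 genes were called at 2 h, 9 higher and 3 lower, where 1313 of all 5449 genes were. With all 5 isopropanol arrays as the control 14 were called, 10 higher and 4 lower, where 1641 of all genes were. The number of genes called at 2 h was 4 without TFM replicate 2 of that time, whose 3' minus 5' signal was 1.49 against 1.18 for its partner, 9 without that partner, 7 without either time zero array and 9 without either isopropanol array of 1 h. BDP1 and RRN7 kept their 2 h calls under every other setting in which they were measured, and the other 12 genes each lost theirs under at least 1 setting.

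Of the 29 genes called at 4 h, 7 were also called higher at 2 h and 2 also lower at 2 h, while RPA43 was higher at 2 h and lower at 4 h. A further 19 of the 40 (47.5%), 15 lower and 4 higher, were called at 4 h alone, where 53.2% of all genes were (28.6% lower and 24.6% higher). The change in effect from 2 h to 4 h was itself called for 19 genes (47.5%), 5 upward and 14 downward, where 35.1% of all genes were called (14.9% upward and 20.2% downward). From 1 h to 4 h it was called for 23 genes (57.5%), 9 upward and 14 downward, where 49.3% of all were (22.9% and 26.4%). RPA43 had the widest change of effect, -1.83 ± 0.18 (SE, adjusted p = 0.000223) from 2 h to 4 h, and RPA190, RPA135 and RPA49 had changes of -0.94 ± 0.17, -1.32 ± 0.22 and -1.11 ± 0.17. Part of the RPA43 value came from its controls, as isopropanol minus time zero was -0.39 at 2 h, on 1 array, and 0.22 at 4 h. Between the TFM groups alone RPA43 changed by -1.22 from 2 h to 4 h. For BDP1 and TFC8 the change in effect from 2 h to 4 h was not called (-0.01, adjusted p = 0.951, and -0.13, adjusted p = 0.357). These changes share the 4 h arrays, so the 2 counts are not separate evidence.

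In isopropanol without TFM 0 of the 40 genes were called against time zero at 1, 2 or 4 h, as for all genes (0% at each time in limma). At an unadjusted p under 0.05 there were 2, 1 and 2 of the 40 genes, and 367, 111 and 67 of all genes. The differences ranged from -0.39 to 0.25 over the 40 genes and 3 times.

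Set side by side, the subunits specific to polymerase I had a median difference of -0.92 at 4 h and those specific to polymerase III 0.01, a gap of -0.93. Measured on each array against time zero, the gap between the medians was -1.11 and -0.74 on the 4 h TFM arrays and lay between -0.28 and 0.03 on the other 11, with a pooled replicate SD of 0.13. The gap is a median over 7 and 9 genes of mixed direction and was not tested. It was -0.59 with the 3' minus 5' signal as a covariate and -0.53 without the dimmest 25% of genes, which left 24 of the 40 genes. For the latter gap only RPA190, RPA135, RPA14 and RPA34 of polymerase I and RPO31, RPC37 and RPC11 of polymerase III remained. RPA43, RPA49 and RPC82 were among the genes left out. With the initiation genes added, 7 of 15 polymerase I genes rose and 6 fell. With BRF1, BDP1 and TFIIIC added, 3 of 17 polymerase III genes rose and 9 fell. Of all genes 30.9% rose and 34% fell, and the difference between the sides was not tested.

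**Figure D4:**
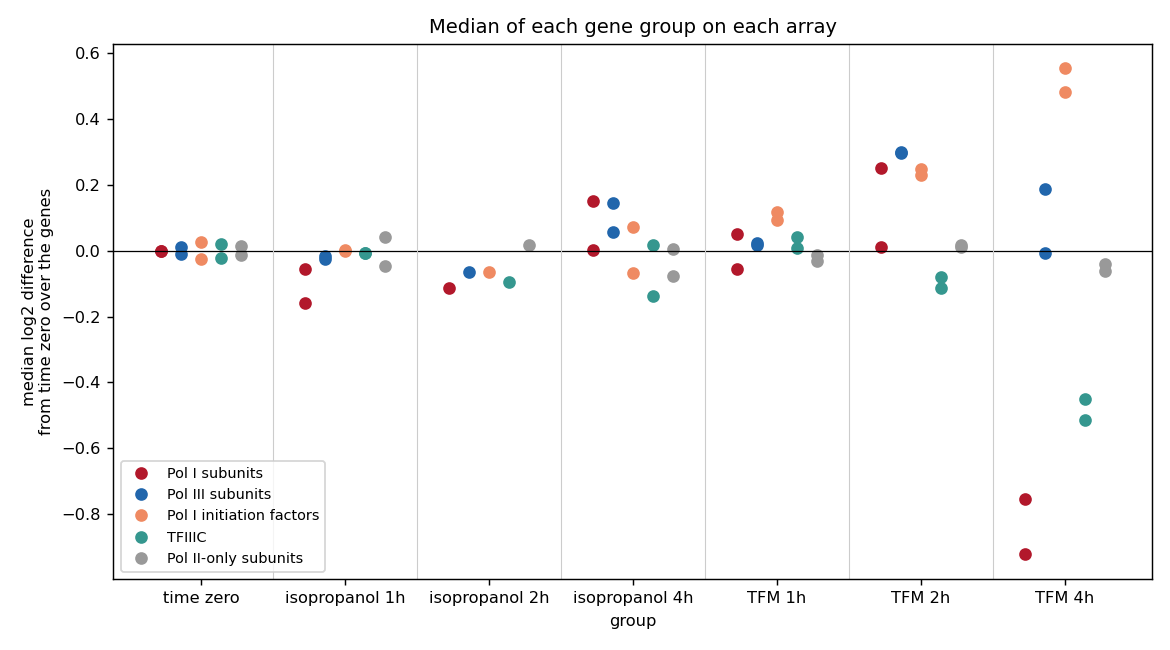
Median log2 difference from time zero over the genes of each role, 1 point for each array, by group. At 4 h of TFM the polymerase I subunits (red) and TFIIIC (green) lie lowest and the polymerase I initiation factors (orange) highest, while the subunits found only in polymerase II (grey) stay near 0.

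The enzymes share an architecture, so counterpart subunits can be set beside each other at 4 h, though differences between genes were not tested. For the largest subunit the differences were -0.92 ± 0.11 for RPA190, 0.01 ± 0.14 for RPO31 and 0.08 ± 0.14 for RPO21 of polymerase II, the last 2 not called. For the second largest, RPA135 fell (-1.21 ± 0.14), while RPB2 of polymerase II and RET1 of polymerase III, the latter looked up after the other values were seen, were at 0.02 and 0.08 and not called. For the larger stalk subunit RPA43 fell while RPC25 and polymerase II's RPB7 (0.34 ± 0.079, SE, adjusted p = 0.00365) rose. For the zinc ribbon the order was turned, as RPA12 rose while RPC11 and polymerase II's RPB9 (-0.37 ± 0.10, SE, adjusted p = 0.00923) fell. The smaller stalk subunit was likewise turned, as RPA14 rose (0.30 ± 0.084), while RPC17 (0.03) and polymerase II's RPB4 (-0.15) were not called. Of the 7 subunits found only in polymerase II, 1 rose and 2 fell (RPB7, RPB9 and RPB11), with a median of -0.03. The shares of all genes at 4 h were 30.9% higher and 34% lower.

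**Figure D5:**
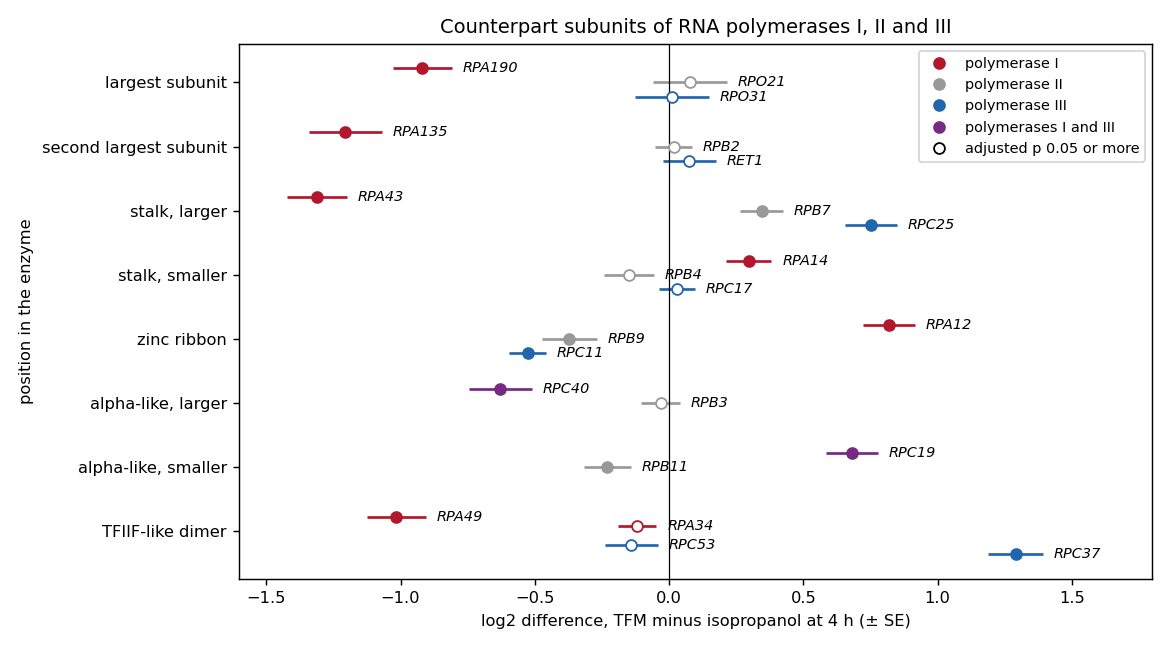
Log2 difference between TFM and isopropanol at 4 h for subunits that hold the same position in polymerases I, II and III, with standard errors. Filled points passed an adjusted p of 0.05. The polymerase I subunits RPA190, RPA135 and RPA43 lie to the left of their counterparts. RPA12 lies to the right of RPB9 and RPC11, and RPA14 to the right of RPB4 and RPC17.

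Further factors for the same genes were listed with the polymerases. Of 8 such factors 4 rose and 1 fell at 4 h, where 64.9% of all genes were called, 30.9% higher and 34% lower. SPT15, the TATA-binding protein used by all the polymerases and a part of TFIIIB, rose by 0.68 ± 0.066 (SE, adjusted p = 1.69e-05). PZF1, the TFIIIA that recruits the machinery to the 5S gene, had a difference of 0.38 ± 0.096 (SE, adjusted p = 0.00568), and FOB1, which blocks replication forks in the rDNA, 0.31 ± 0.075 (SE, adjusted p = 0.00499). NHP6A, a chromatin protein known to aid polymerase III, fell by 0.58 ± 0.075 (SE, adjusted p = 0.00011).

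Of 9 kinase and phosphatase genes known to act on Maf1 or polymerase III, 4 rose and 4 fell at 4 h, against the same 30.9% and 34% of all genes. PPH3 and PSY2, subunits of the phosphatase PP4 that acts on Maf1, rose by 1.12 ± 0.081 (SE, adjusted p = 3.22e-06) and 0.68 ± 0.08 (SE, adjusted p = 5.61e-05). KNS1, a kinase of the polymerase III subunit Rpc53, rose by 0.82 ± 0.097 (SE, adjusted p = 5.61e-05). The kinase gene SCH9 was called higher close to the threshold (0.33 ± 0.13, SE, adjusted p = 0.0489). CKB1 and CKB2, the regulatory subunits of casein kinase 2, had differences of -1.04 ± 0.085 (SE, adjusted p = 6.21e-06) and -0.36 ± 0.068 (SE, adjusted p = 0.0011). The kinase genes CKA2 (-0.31 ± 0.078, SE, adjusted p = 0.00546) and MCK1 (-0.42 ± 0.147, SE, adjusted p = 0.0295) were also called lower. All 4 regulators of ribosome biogenesis promoters on the list were called higher at 4 h, where 30.9% of all genes were, among them the repressors TOD6 (1.18, adjusted p = 2.35e-05) and DOT6 (0.66, adjusted p = 2.8e-05) and the activator SFP1 (0.64, adjusted p = 3.39e-05). At 2 h PPH3 (0.67, adjusted p = 0.00417), PSY2 (0.39, adjusted p = 0.0299) and TOD6 (0.74, adjusted p = 0.0126) were called higher. So was FOB1 (0.35, adjusted p = 0.0362), while CKB2 (-0.37, adjusted p = 0.0204) was called lower. The lone isopropanol array at 2 h read lowest of all arrays for PPH3 (9.73), PSY2 (9.38) and FOB1 (9.99). The FOB1 TFM arrays at 2 h (10.31 and 10.36) overlapped isopropanol at 4 h (10.19 and 10.33), and time zero read 10.18 and 10.24. For PPH3 (10.38 and 10.41) and PSY2 (9.82 and 9.73) the TFM arrays at 2 h lay above every array without TFM.

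The array also carries control probe sets for the product of polymerase I. The mean of the 18S probe sets read 9.96 and 11.3 on the 4 h TFM arrays and 9.99 and 8.95 in isopropanol at 4 h, and the groups overlapped. The mean of the 25S probe sets read 10.47 and 11.13 against 10.81 and 9.67, also with overlap. On the lone isopropanol array at 2 h 18S read 7.59 and 25S 8.34, each the lowest of the 13. On every array the 18S and 25S means both lay below that array's median over all genes, and replicates of the 4 h groups lay far apart. Whether these probe sets follow the amount of ribosomal RNA in the cell was not tested, so no level of ribosomal RNA is read from them. Mature ribosomal RNA is also long-lived, so even its level would not be a rate of synthesis.

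The mean 3' minus 5' signal moved with TFM at 4 h, and with it as a covariate 20 of the 40 genes were called at 4 h, 8 higher and 12 lower. Of all 5449 genes 2448 were called at 4 h with the covariate, where 3539 were without it. The 9 calls lost among the 40 were those of RPA14, RPC31, RPC40, RPO26, RRN5, RRN6, RRN9, UAF30 and BRF1. The other 20 genes kept their calls under every setting tried in which they were measured, among them RPA190, RPA135, RPA43, RPA49, RPC82, RPC37, RRN3, RRN7 and BDP1. All 29 kept their direction.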

How the data were processed

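The authors deposited log2 values, 1 per probe set and array. Per the submitters' processing notes they came from RMA, whose version and settings are not given in the sources used here. Of 5900 probe sets 184 were controls, 5498 carried 1 gene, 0 several and 218 none. Symbols were updated through the RefSeq gene table (12 changed). For the 47 genes with several probe sets the one with the highest mean over the 13 arrays was kept, leaving 5449 genes. In R 4.3.3, limma 3.58.1 fitted a mean for each of the 7 groups (6 residual and 3.52 prior degrees of freedom), with the Benjamini-Hochberg method over all genes. The lone isopropanol array at 2 h was taken to have the same variance as the rest. Precision is limited by the number of arrays, with a median SE of 0.0954 at 1 and 4 h and 0.117 at 2 h.

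The genes and lists were chosen with earlier results of these data known. All 40 genes are named. Values on every array are given for up to 2 genes per role and direction with the smallest adjusted p at 4 h, for RPA190, RPA135, RPO31, RPC11, RRN3, BRF1 and MAF1, and for any gene called at 1 or 2 h. Of other lists up to 3 called genes per direction are named, and MCK1 and SCH9 besides. The alternatives were other normalizations, no dim genes, another variance model, averaged probe sets, other controls, a replicate block and leaving out each array; 3 more were added after seeing the data. Replicate numbers were not taken to pair the arrays, though same-numbered deviations correlated among time zero and isopropanol at 1 and 4 h. Promoter sequences were not analysed here. Figures used matplotlib 3.10.9 in Python 3.11.15.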

Additional observations from a re-analysis of the deposited data

Results flagged for a closer look

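A TFM effect at 4 h that differed from the effect at 2 h or 1 h, by the interaction term in limma at an adjusted p under 0.05, drew attention to the genes below; values are the log2 effect at 4 h minus that at the earlier time. Groups of 2 arrays are too small to look for single outlying arrays. Both sets share the 4 h arrays, and the isopropanol control at 2 h is 1 array.

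From 2 h to 4 h the effect moved down in 5 of the 7 polymerase I subunits, by -1.83 for RPA43, -1.32 for RPA135, -1.11 for RPA49, -0.94 for RPA190 and -0.36 for RPA34. Polymerase III subunits moved both ways, RPC37 by 0.92 and RPC82 by 0.82, against -0.63 for RPC11, -0.62 for RPC53, -0.58 for RPC31 and -0.32 for RPC17. The shared subunits RPC19 and RPB5 moved by 0.63 and -0.47. Of the polymerase I initiation genes RRN3 moved by 0.77, RRN7 by 0.57 and UAF30 by -0.61. TFC3, TFC1 and BRF1 on the polymerase III side moved by -0.64, -0.54 and -0.33.

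From 1 h to 4 h the same polymerase I subunits, other than RPA34, moved down, RPA43 by -1.59, RPA135 by -1.21, RPA49 by -0.97 and RPA190 by -0.80, and RPA12 moved up by 0.63. RPC37, RPC82 and RPC25 moved up by 1.05, 0.89 and 0.57, and RPC11, RPC31 and RPC34 moved by -0.51, -0.46 and -0.39. For the shared subunits the values were 0.59 for RPC19, -0.58 for RPC40 and -0.42 for RPB5. Among the initiation genes they were 1.16 for RRN3, 0.86 for RRN7, 0.57 for RRN9, 0.56 for RRN6, -0.65 for UAF30 and -0.50 for RRN5. The TFIIIC genes TFC1, TFC3 and TFC4 had -0.48, -0.42 and -0.41.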

How the results depend on the processing

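At 4 h 27 to 29 genes were called when any 1 array was left out, 20 with the 3' minus 5' signal as a covariate and 16 of the 24 left without the dimmest 25% of genes. At 2 h, where 14 were called, the count was 4 to 15 with 1 array left out, 5 without the dimmest genes, 4 with the covariate and 4 without both TFM arrays of high 3' minus 5' signal. At 1 h, where 2 were called, the count was 0 to 2 with 1 array left out, 1 with a trended, robust variance and 4 against all 5 isopropanol arrays. The count for the change from 2 h to 4 h, 19, was 9 without the dimmest genes and 15 to 19 with 1 array left out. From 1 h to 4 h, 23, it was 11 without the dimmest genes, 11 with the covariate and 19 to 23 with 1 array left out. Without the dimmest genes fewer genes are tested. The cause of the other losses was not tested. Over all genes the calls at 4 h were 3539, and 2448 with the covariate. At 2 h they were 770 and 513, and at 1 h 67 and 144. For the change from 1 h to 4 h they were 2684 and 1622, and from 2 h to 4 h 1912 and 1946. With 1 array left out, the calls over all genes moved both ways at 1 h and at 2 h. The isopropanol array at 2 h cannot be left out of contrasts that use it.

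Correlations of same-numbered deviations ran from -0.47 to 0.60 over 15 pairs of groups, 3 of them over 0.1. All 3 were between groups without TFM. They were 0.60 for time zero with isopropanol at 4 h, 0.43 for time zero with isopropanol at 1 h and 0.27 for isopropanol at 1 h with that at 4 h. What these arrays share was not tested. With the replicate block 29 genes were called at 4 h, 6 at 2 h, 0 at 1 h, 18 for 2 h to 4 h and 23 for 1 h to 4 h.

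The gap between polymerase I and III medians, -0.93, was -0.53 without the dimmest genes, -0.59 with the covariate, -0.71 without both high arrays and -1.08 to -0.71 with 1 array left out. Isopropanol against time zero at 4 h gave 0 calls among the 40 genes under each setting tried.

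Sign changed at 4 h for 9 genes that were not called. Against time zero RPA34 was 0.035, RPC10 0.085 and RPC53 0.11. Against all 5 isopropanol arrays RPC10 was 0.0245 and TFC6 0.057. With the covariate RPC17 was -0.012, RPO31 -0.35, RRN10 0.078, TFC6 0.050 and TFC7 -0.036. Cyclic loess gave RPC17 -0.0345 and TFC6 0.0070, and median centring TFC6 0.0041. Quantile normalization gave RPC10 0.033, RPC17 -0.033, RPO31 -0.0047 and TFC6 0.010. Without both high arrays RPC10 was 0.0435, RPC17 -0.022 and RPO31 -0.12. With 1 array left out RPB8 ran from -0.024 to 0.23, RPC10 from -0.094 to 0.0435, RPC17 from -0.026 to 0.086, RPO31 from -0.13 to 0.15, TFC6 from -0.24 to 0.21 and TFC7 from -0.0195 to 0.12.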
